A study of Mus musculus with 6 samples.

Results

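Laminin chains and nidogens were described in sorted cells of the mouse embryo. The group was defined by name as 10 genes, and every probe set of the array that the platform annotation gave exactly 1 gene symbol, with that symbol among the 10, was taken. All 10 genes had such a probe set, 20 probe sets in all, out of 45037 probe sets that were not controls and 18193 named genes.

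The arrays compared GFP-positive with GFP-negative cells, both sorted from embryos heterozygous for Noto-GFP, a reporter at a homeobox gene of the node and notochord, on a mixed 129S3;ICR background with the sexes mixed. Embryos were of embryonic day 8.5 with a median of 6 somites, and the tissue behind the boundary between somites SI and SII was pooled and dissociated in 1% trypsin. About 2600, 4300 and 6600 GFP-positive cells came from pools of 23, 39 and 52 embryos, and 1 GFP-positive and 1 GFP-negative array was made from each pool, so each group holds 3 arrays. Both groups carry the reporter allele, and the GFP-negative group is a mixture of all the other cells of the region.

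Laminins are large secreted proteins made of an alpha, a beta and a gamma chain that join in a coiled coil, and they polymerise into the sheet on which a basement membrane forms. The alpha chain carries the domains that integrins and dystroglycan bind, so the alpha chain sets much of what a laminin does. Nidogens bind the gamma chain and link the laminin sheet to collagen IV and perlecan. In vertebrate embryos laminins are known as components of the sheath around the notochord, and in zebrafish, mutants in the laminin alpha 1, beta 1 and gamma 1 genes fail to form a normal notochord.

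Intensities were compared as log2(intensity + 32), tested with limma without a pool term, and adjusted by Benjamini-Hochberg over all genes tested. A log2 fold change below is the GFP-positive minus the GFP-negative mean on that scale, with its standard error (SE). The offset of 32 makes changes of dim genes look smaller than they are. Of the 10 members, 8 were bright enough to be tested, and 4 of these 8 passed at an adjusted p under 0.05. Lama1 and Nid2 were higher and Lama4 and Nid1 lower in GFP-positive cells. Over all 12628 genes tested, 4.01% passed, 2.60% higher and 1.41% lower. The 8 members had a median log2 fold change of 0.10, beside 0.01 for all genes tested. The GFP-positive and GFP-negative intensities did not overlap in 5 of the 8 members, and in 27.7% of all genes.

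**Figure D1:**
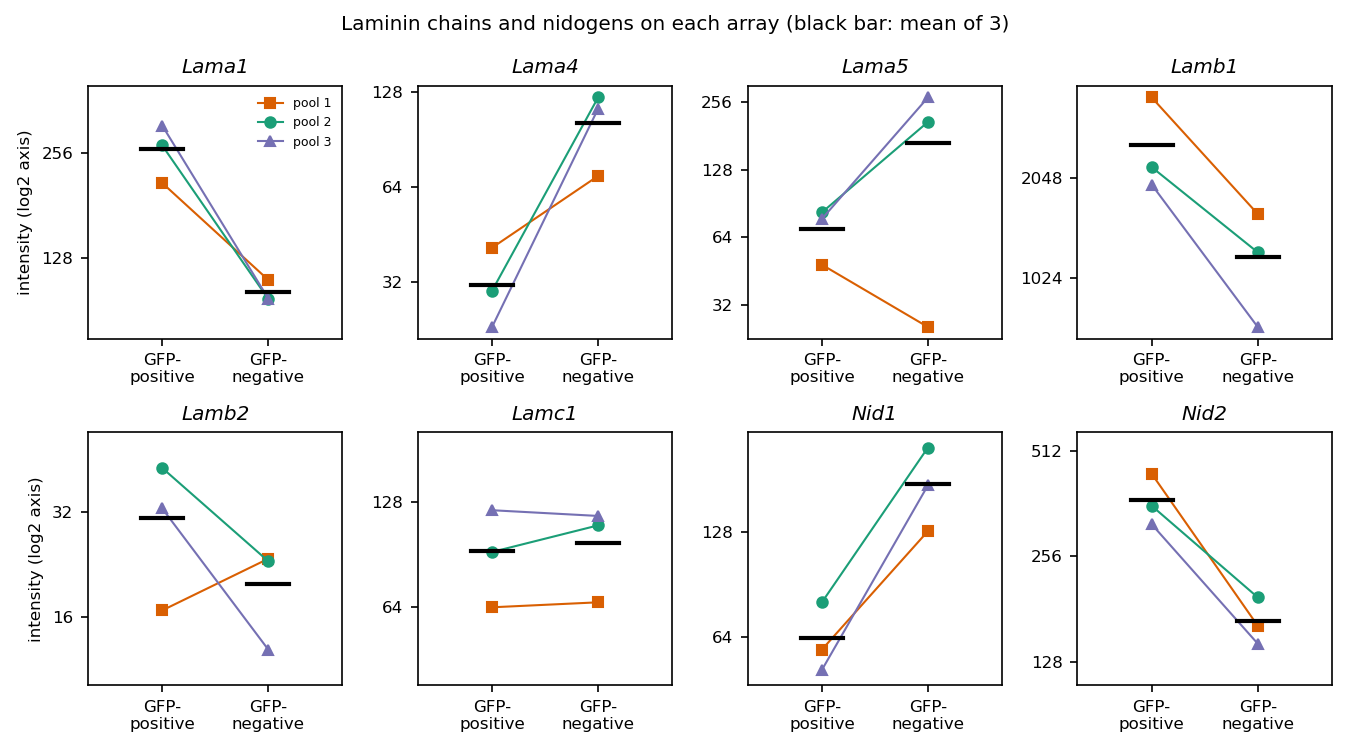
Deposited intensity (log2 axis) of the probe set that stands for each of the 8 tested members, on GFP-positive arrays at the left and GFP-negative arrays at the right. Lines join the arrays of 1 pool and black bars are means of 3 arrays. Lama1, Lamb1 and Nid2 are higher on the GFP-positive array of every pool, Lama4 and Nid1 are lower in every pool, and Lama5 is lower in pools 2 and 3 but higher in pool 1.

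The arrays of pool 1 stood apart in the 3′ over 5′ signal ratios of control probe sets, so members are also given without that pool. The 3′ over 5′ signal ratio of the Gapdh control probe sets was 14.0 on the GFP-positive and 15.4 on the GFP-negative array of pool 1, whereas all other arrays had 1.60 to 2.22. For beta-actin these ratios were 14.9 and 22.7 in pool 1, whereas all others had 1.90 to 2.75. Pool 1 also had the fewest embryos and sorted GFP-positive cells, so RNA quality and the amount of input cannot be told apart. The part of either in the differences between pools was not tested. Node and notochord markers were listed with earlier results of these data known, so they are no check of the labels. Of 12 measured (13 listed), 10 were higher in GFP-positive cells and 0 lower. Their summed intensity was 14285 to 18746 on GFP-positive and 2132 to 3077 on GFP-negative arrays. The reporter's own gene, Noto, was not analysed here.

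Lama1 encodes the laminin alpha 1 chain, the main alpha chain of the earliest embryonic basement membranes. Its 1 probe set had intensities of 210.3, 269 and 307 on the GFP-positive arrays of pools 1, 2 and 3, against 111, 97.9 and 98.2 on the GFP-negative arrays. Every GFP-positive array lay above every GFP-negative array, and the GFP-negative values lay close together. The means were 262 ± 48.8 in GFP-positive and 102 ± 7.50 in GFP-negative cells (SD, n = 3 each). Lama1 rose by a log2 fold change of 1.12 ± 0.21 (SE, limma adjusted p = 0.0285), with differences within pools 1, 2 and 3 of 0.76, 1.21 and 1.38. It was the 1 member that also passed when p was adjusted over all 27821 kept probe sets (limma adjusted p = 0.0414), where 1.81% of probe sets passed.

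Lama4 encodes the laminin alpha 4 chain, a chain of blood vessel and mesenchymal basement membranes that lacks the large amino-terminal arm of most other alpha chains. Its kept probe set had intensities of 41.0, 29.9 and 22.9 on GFP-positive arrays, against 69.3, 123 and 113 on GFP-negative arrays. The groups did not overlap, and the nearest values were the arrays of pool 1. Lama4 fell by 1.07 ± 0.23 on the log2 scale (SE, limma adjusted p = 0.0432), with differences of -0.47, -1.32 and -1.40 within pools 1, 2 and 3. A second Lama4 probe set, 1424808_at, was too dim to be tested, at 4.97, 3.49 and 1.64 in GFP-positive and 11.5, 24.4 and 18.8 in GFP-negative cells. It was also lower on all 3 GFP-positive arrays, within a range where a low value may be background.

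Lama5 encodes laminin alpha 5, an alpha chain of many epithelial basement membranes, and its probe sets disagreed. The probe set that stood for the gene, 1427009_at, had 48.4, 82.7 and 77.4 on GFP-positive arrays and 25.5, 209 and 269 on GFP-negative arrays. The GFP-negative array of pool 1 was the lowest of all 6 arrays, and the other GFP-negative arrays were the highest. The log2 fold change was -0.68 ± 0.55 and did not pass (SE, limma adjusted p = 0.501), and the pools differed by 0.48, -1.07 and -1.46. Without pool 1 it was -1.27 ± 0.17 and passed (limma adjusted p = 0.000823), and without the GFP-negative array of pool 1 alone it was -1.43 (limma adjusted p = 0.00619).

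The other kept Lama5 probe set, 1427010_s_at, had 75.6, 115 and 122 on GFP-positive arrays and 59.0, 104 and 60.3 on GFP-negative arrays. It was higher in GFP-positive cells in all 3 pools, by 0.24, 0.11 and 0.74, and did not pass (log2 fold change 0.36 ± 0.25, limma adjusted p = 0.462 over probe sets). Its _s_at suffix marks a probe set that can bind transcripts of several genes or variants. The direction of Lama5 therefore differed with the probe set chosen. The third Lama5 probe set did not exceed 11.3 on any array.

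Lama2 encodes the alpha chain of muscle laminin and Lama3 that of epidermal laminin, and neither could be tested. The Lama2 probe set ranged from 1.16 to 11.5 over all 6 arrays and the Lama3 probe sets, 2 in number, from 0.926 to 14.4. No array had either gene at or above its 40th percentile of intensity, which lay between 11.7 and 18.4, and a difference between the groups was not detectable at these levels.

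Lamb1 encodes the laminin beta 1 chain, which pairs with gamma 1 in most embryonic laminins. The probe set that stands for it, 1424114_s_at, had 3587, 2212 and 1959.5 on GFP-positive arrays, against 1599, 1225 and 730.0 on GFP-negative arrays. In both groups pool 1 was highest and pool 3 lowest, and the groups did not overlap. The log2 fold change was 1.12 ± 0.33 and did not pass (SE, limma adjusted p = 0.0995). The differences within pools 1, 2 and 3 were 1.15, 0.84 and 1.39. With the pool as a block the same fold change had an SE of 0.17 and passed (limma adjusted p = 0.00612), and it also passed without pool 1, at 1.11 (limma adjusted p = 0.00457), and without the GFP-negative array of pool 1, at 1.37 (limma adjusted p = 0.0170).

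The probe set that stands for Lamb1 has the _s_at suffix too, and the other kept Lamb1 probe sets, 3 in number, gave smaller differences of the same sign. Log2 fold changes were 0.30 ± 0.29 for 1424113_at, 0.47 ± 0.26 for 1451241_at and 0.25 ± 0.15 for 1446180_at (SE), and none passed in limma over probe sets (adjusted p = 0.615, 0.363 and 0.375). For 1424113_at the difference lay in pool 1, at 0.94, with -0.07 and 0.03 in pools 2 and 3. The mean over the Lamb1 probe sets was 0.54.

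Lamb2, the beta 2 chain of muscle, nerve and kidney basement membranes, was dim. It had 16.7, 42.7 and 32.7 on GFP-positive arrays and 23.5, 23.1 and 12.9 on GFP-negative arrays. The groups overlapped, and pool 1 went against pools 2 and 3 (-0.19, 0.44 and 0.53). The log2 fold change of 0.26 ± 0.20 did not pass (SE, limma adjusted p = 0.475).

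Lamc1 encodes the gamma 1 chain, which is shared by most laminins and holds the nidogen binding site. Its probe set 1423885_at had 63.8, 91.9 and 121 on GFP-positive arrays, against 65.9, 109 and 116 on GFP-negative arrays. The values followed the pool more than the group. The log2 fold change was -0.06 ± 0.26 (SE, limma adjusted p = 0.914). The other probe set, 1423886_at, had 92.7, 98.3 and 97.0 on GFP-positive and 76.2, 56.9 and 60.9 on GFP-negative arrays, with no overlap. Its log2 fold change of 0.41 ± 0.19 did not pass (limma adjusted p = 0.281 over probe sets), so a difference in the shared gamma chain was not established in either direction.

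Nid1, the nidogen known from most basement membranes, had 59.0, 80.6 and 51.6 on GFP-positive arrays, against 129, 223 and 174 on GFP-negative arrays (probe set 1416808_at). All GFP-positive arrays lay below all GFP-negative ones, and pool 2 was highest in both groups. The means were 63.7 ± 15.0 in GFP-positive and 175 ± 47.3 in GFP-negative cells (SD, n = 3 each). Nid1 fell by 1.10 ± 0.24 on the log2 scale (SE, limma adjusted p = 0.0460), with -0.82, -1.18 and -1.30 within pools 1, 2 and 3. Its other kept probe set, 1448469_at, was dim and did not pass (-0.28 ± 0.26, limma adjusted p = 0.593 over probe sets), with 13.9, 4.32 and 16.4 on GFP-positive and 3.85, 42.8 and 22.0 on GFP-negative arrays. The third Nid1 probe set did not exceed 11.5.

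Nid2, the related nidogen with the same kind of binding domains, went the other way. Its 1 probe set had 441, 357 and 316 on GFP-positive arrays, against 162, 196 and 144 on GFP-negative arrays. All GFP-positive arrays lay above all GFP-negative ones, and the means were 372 ± 63.7 in GFP-positive and 167 ± 26.1 in GFP-negative cells (SD, n = 3 each). Nid2 rose by a log2 fold change of 1.02 ± 0.22 (SE, limma adjusted p = 0.0451), with 1.29, 0.78 and 0.98 within the pools.

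**Figure D2:**
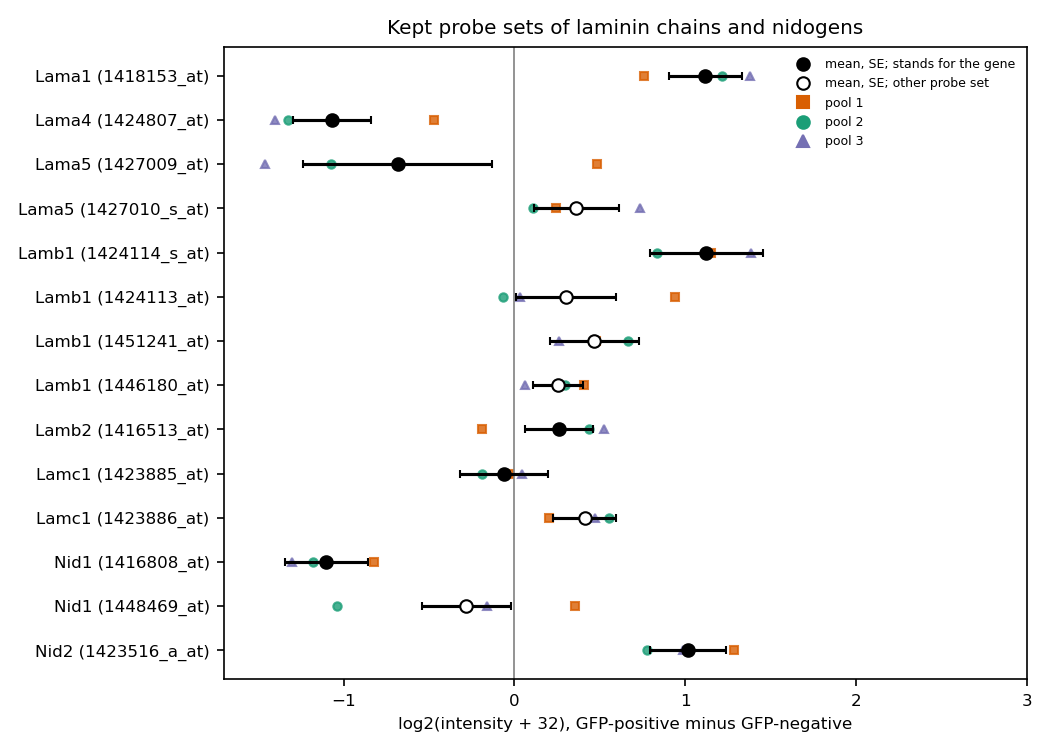
Difference in log2(intensity + 32), GFP-positive minus GFP-negative, for the 14 kept probe sets of the members. Circles with bars are means with SE from limma, filled for the probe set that stands for the gene, and coloured symbols are single pools. The 2 Lama5 probe sets lie on opposite sides of 0, as do the 2 of Lamc1, while the 4 of Lamb1 and the 2 of Nid1 share a sign.

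RefSeq promoters (build GRCm38.p6) matched 5 of the 10 members, namely Lama2, Lama5, Lamb1, Lamb2 and Nid1. Those of Lamb1 and Nid1 are shown because, among these 5, these genes had groups that did not overlap, Lamb1 higher and Nid1 lower on GFP-positive arrays. The 250 bases before the start of each gene are printed 5′ to 3′ on the strand of the gene, with the GC box GGGCGG, searched on both strands, in capitals. The Lamb1 stretch lies at chr12:31265043-31265292 and the Nid1 stretch at chr13:13437352-13437601, both on the plus strand.
Lamb1: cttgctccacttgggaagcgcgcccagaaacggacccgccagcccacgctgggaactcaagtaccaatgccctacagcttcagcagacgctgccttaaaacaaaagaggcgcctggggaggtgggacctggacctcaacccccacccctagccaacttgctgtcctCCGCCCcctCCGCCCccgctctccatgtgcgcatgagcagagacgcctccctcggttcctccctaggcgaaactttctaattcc
Nid1: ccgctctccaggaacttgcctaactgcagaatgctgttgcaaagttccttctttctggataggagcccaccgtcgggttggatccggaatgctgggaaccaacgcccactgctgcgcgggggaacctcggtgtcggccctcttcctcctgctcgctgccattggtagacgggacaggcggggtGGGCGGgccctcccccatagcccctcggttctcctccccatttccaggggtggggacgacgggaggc
The Lamb1 stretch held 2 GC boxes and 14 CG dinucleotides, and the Nid1 stretch 1 GC box and 16 CG dinucleotides. A GC box was found in 32.7% of all 32851 promoter windows of this length, whose median was 6 CG dinucleotides. Neither stretch held TATAAA (12.4% of all windows), the forkhead core TGTTTAC (3.17%) or AGATAA (9.99%), each searched on both strands.

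The opposite differences of related members were also read within each pool. From the difference of Nid2, GFP-positive minus GFP-negative, that of Nid1 was subtracted, which left 2.11, 1.96 and 2.29 on the log2 scale in pools 1, 2 and 3. The same for Lama1 and Lama4 gave 1.23, 2.54 and 2.78, least in pool 1. Both pairs were chosen with their values known. An exact permutation test was run on them, but with 3 against 3 arrays its smallest possible p is 0.1, so it is not used. The differences show unequal change, not which transcript was more abundant.

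The members' calls changed with the arrays used, as did those of all genes. With the pool as a block, 3 members were higher (Lama1, Lamb1 and Nid2) and 2 lower (Lama4 and Nid1), where 8.40% and 6.76% of all genes passed. Without pool 1, 3 were higher (the same genes) and 3 lower (Lama4, Lama5 and Nid1), where 19.5% and 17.9% of 11762 genes passed. The same members passed without the GFP-negative array of pool 1 alone, where 10.4% and 9.95% of genes passed. Without pool 2 or without pool 3, 0 members passed in limma. Over all genes 0.0258% passed without pool 2 and 0.224% without pool 3. The call of Lama1 was lost when any 1 array of pool 2 or 3 was left out, at adjusted p up to 0.174. Those 4 settings left 54 to 108 of all genes higher and 8 to 33 lower, against 328 and 178 with all arrays. Those of Lama4, Nid1 and Nid2 were lost without any 1 array other than the GFP-negative array of pool 1, at adjusted p up to 0.216, 0.226 and 0.194. Without the GFP-positive array of pool 1, where Lama1 passed, 220 of all genes were higher and 166 lower. The log2 fold changes themselves kept their sign, between 1.01 and 1.25 for Lama1, -1.26 and -0.95 for Lama4, -1.27 and -0.94 for Nid1, and 0.89 and 1.12 for Nid2.

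**Figure D3:**
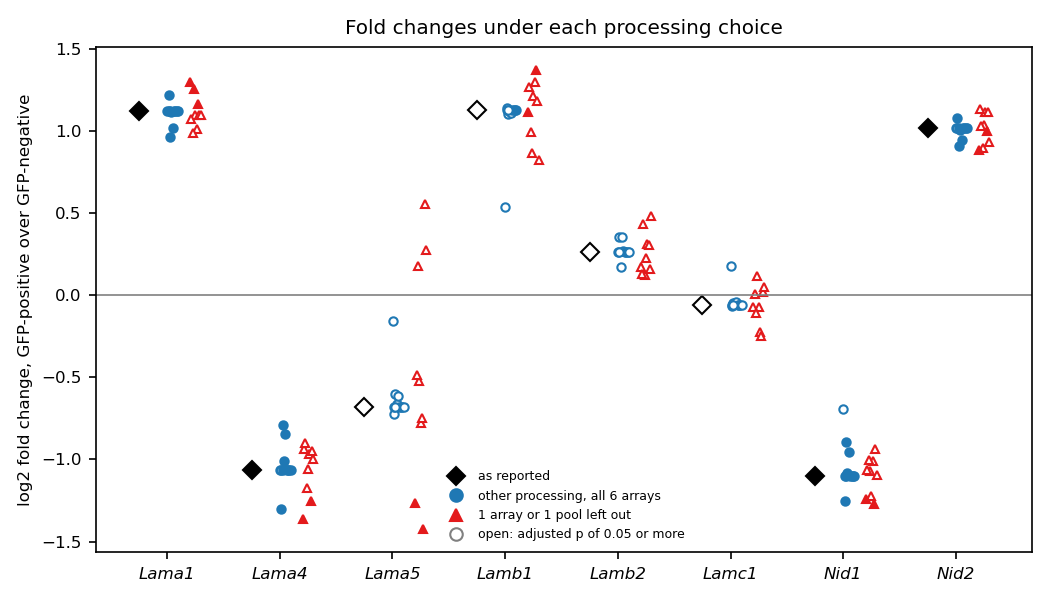
Log2 fold change of each tested member as reported (black diamonds), under other processing of all 6 arrays (blue circles) and with 1 array or 1 pool left out (red triangles). Filled symbols passed at an adjusted p under 0.05. Lama1, Lamb1 and Nid2 stay above 0 and Lama4 and Nid1 below 0 under every choice shown, while Lama5 and Lamc1 cross 0.

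Partners of laminins in the basement membrane were read from lists. Of the laminin chains outside the members, Lamc3, a gamma chain, was the 1 gene of 3 that was measured, through its GFP-negative arrays. It had 3.73, 13.3 and 10.1 on GFP-positive and 22.1, 24.5 and 33.5 on GFP-negative arrays and did not pass (log2 fold change -0.52 ± 0.16, limma adjusted p = 0.105).

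Of 7 measured genes for collagen IV chains, perlecan, agrin and multiplexins (10 listed), 1 was higher, 0 lower and 6 did not pass, with a median log2 fold change of 0.07. The 1 gene was Agrn, a heparan sulfate proteoglycan that binds laminin and dystroglycan. Agrn had 1472, 1428 and 1671 on GFP-positive arrays, against 638, 769 and 722 on GFP-negative arrays, and rose by 1.07 ± 0.19 on the log2 scale (SE, limma adjusted p = 0.0225). A fit with the pool as a block called 3 genes of this list higher, where 8.40% of all genes were called higher. Beside Agrn these were the collagen IV chains Col4a1, at 0.87, and Col4a2, at 0.70 (limma adjusted p = 0.0240 and 0.0287). Without the pool term, the other kept probe set of Col4a1 had 0.41 ± 0.29 (SE, limma adjusted p = 0.466 over probe sets).

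Of 13 other basement membrane proteins measured (16 listed), 3 were higher, 0 lower and 10 did not pass, with a median log2 fold change of 0.55. Smoc1, a calcium-binding protein related to SPARC, averaged 632 ± 187 in GFP-positive and 130 ± 50.0 in GFP-negative cells (SD, n = 3 each) and rose by 2.03 ± 0.31 on the log2 scale (SE, limma adjusted p = 0.0130). Frem2, a transmembrane protein of epithelial basement membranes, averaged 1004 ± 196 in GFP-positive and 247 ± 101 in GFP-negative cells (SD, n = 3 each). It rose by 1.95 ± 0.32 (SE, limma adjusted p = 0.0177). Egflam, the dystroglycan ligand pikachurin, had 184, 201 and 224 on GFP-positive arrays, against 46.7, 55.3 and 50.7 on GFP-negative arrays, and rose by 1.50 ± 0.19 (SE, limma adjusted p = 0.00665). With the pool as a block, where 8.40% of all genes were higher, Frem1, a secreted relative of Frem2, was higher too, at 1.03 (limma adjusted p = 0.00832).

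Of 9 measured laminin receptors (13 listed), 0 passed in limma, with a median log2 fold change of 0.23. The largest differences were those of Itgb1, the beta 1 integrin, and Cd151, a tetraspanin that associates with laminin-binding integrins. Itgb1 had 264, 388 and 492 on GFP-positive arrays and 249, 1708 and 1476 on GFP-negative arrays, so that the GFP-negative array of pool 1 again lay with the GFP-positive ones (log2 fold change -1.17 ± 0.63, limma adjusted p = 0.315). Cd151 had 1124, 1434 and 1297 on GFP-positive and 994, 511 and 462 on GFP-negative arrays (1.01 ± 0.30, limma adjusted p = 0.0993). Its other kept probe sets had log2 fold changes of 1.06, 0.69, 0.82 and, for the dimmest, -0.13. In the fit with the pool term 3 receptors were higher, where 8.40% of all genes were. These were Itga6, an integrin alpha chain for laminin, at 0.90, Cd151, and Sdc1, a syndecan, at 0.80 (limma adjusted p = 0.0146, 0.0366 and 0.0281).

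Of 9 measured genes that glycosylate dystroglycan for laminin binding (13 listed), 0 passed in limma, with a median log2 fold change of 0.13. The largest differences were 0.76 ± 0.26 for Pomgnt2 and 0.72 ± 0.19 for Large2 (SE, limma adjusted p = 0.143 and 0.0787), both glycosyltransferases. The other kept probe set of Pomgnt2 had -0.09. With the pool as a block, where 8.40% of all genes were higher, Large2 was higher (limma adjusted p = 0.0237). But Large2 was kept through its GFP-positive arrays, reaching the 40th percentile on 3 of these and on 1 GFP-negative array.

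**Figure D4:**
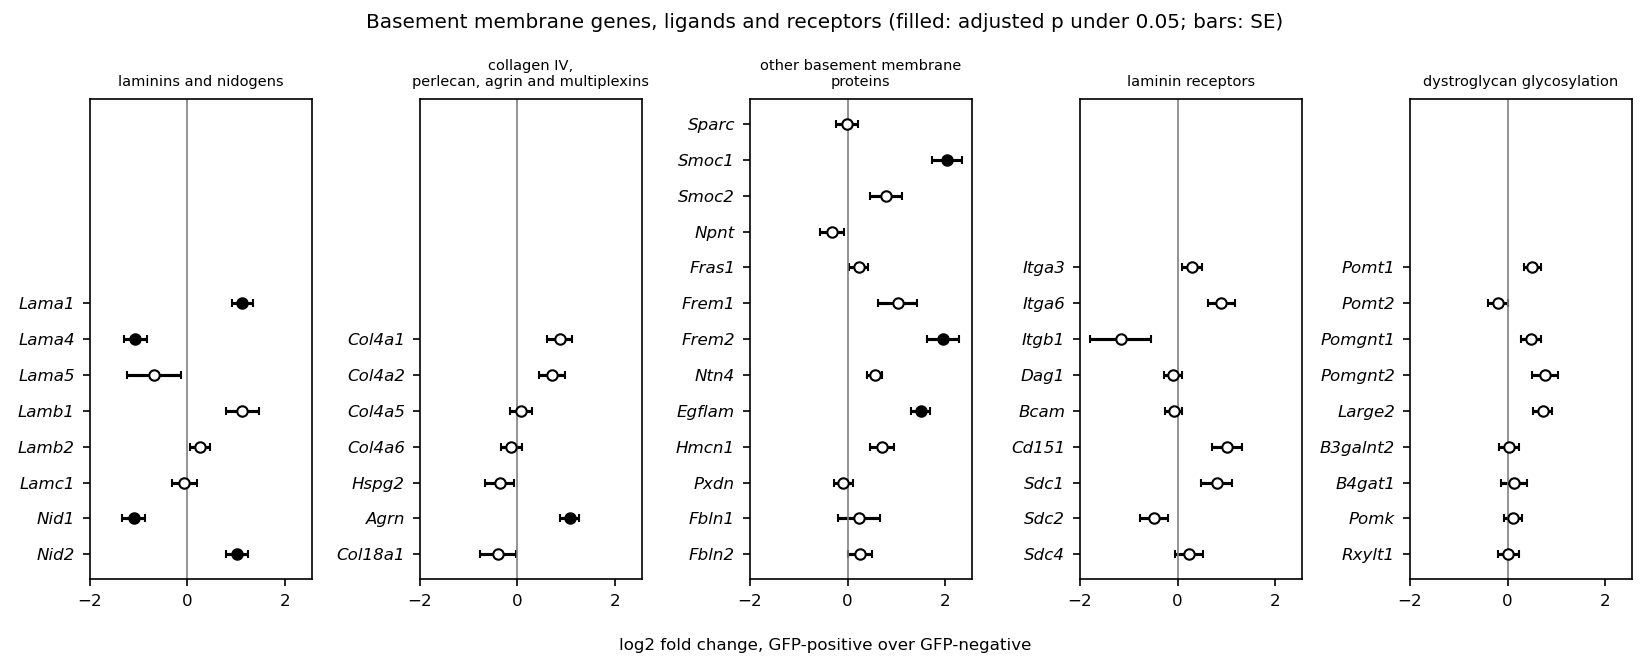
Log2 fold change, GFP-positive over GFP-negative, with SE bars, for the 8 tested members and the measured genes of the 4 partner lists. Filled circles passed in limma at an adjusted p under 0.05. Both directions passed among laminins and nidogens, whereas in the partner lists Agrn, Smoc1, Frem2 and Egflam passed, all higher.

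Markers of other cell types of the region moved with the groups, beside the members. Since whole sorted populations were measured, fewer cells of a type and less RNA per cell cannot be told apart. Beside the lower Lama4 and Nid1, 7 of 8 measured endothelial markers were lower, with a summed intensity of 234 to 433 on GFP-positive and 1516 to 2185 on GFP-negative arrays. Of the lower ones, Tek was kept through its GFP-negative arrays, reaching the 40th percentile on 3 of these and on 1 GFP-positive array. Of 11 lateral and extraembryonic mesoderm markers, 8 were lower (448 to 772 against 2759 to 6122). Of 7 primitive blood markers, 2 passed as lower (339 to 5801 against 12241 to 28624). With the pool as a block all 7 blood markers passed as lower, where 6.76% of all genes did. In all of these sums the GFP-negative array of pool 1 was the lowest of its group, as it was for Lama4, Nid1 and Lama5. Among GFP-positive arrays, that of pool 1 was the lowest in these sums and for Lama5, at 48.4. Lama4 was highest there (41.0, against 29.9 and 22.9), and Nid1, at 59.0, lay between pools 2 and 3 (80.6 and 51.6).

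Beside the higher Lama1 and Nid2, 6 of 10 gut endoderm markers were higher and 1 lower (summed intensity 2274 to 3716 on GFP-positive and 934 to 1247 on GFP-negative arrays). Of the higher ones, Trh was kept through its GFP-positive arrays, reaching the 40th percentile on 3 of these and on 1 GFP-negative array. Of 11 presomitic and somitic markers, 5 were higher and 0 lower (5160.2 to 5541 against 1697 to 2055). Of 12 visceral and parietal endoderm markers, whose cells are known for strong laminin synthesis, 1 was higher, Plat, and 0 lower. Their sum was higher on every pool's GFP-positive array (946, 2943 and 1681 against 428, 815 and 1258 in pools 1 to 3). Of 9 surface ectoderm markers 0 were higher and 3 lower (469 to 621 against 572 to 719). Of the lower ones, Dlx5 was kept through its GFP-negative arrays alone. Of 9 neural plate markers 0 were higher and 1 lower (3351 to 3507 against 3707 to 4451). That 1 was Nkx1-2, the brightest of the list on every GFP-negative array. It had 400, 915 and 821 on GFP-positive and 1560, 2097 and 2043 on GFP-negative arrays. Irx3, Hes5 and Ncam1 were higher in every pool, Sox1, Pax6, Olig3 and Zic5 lower, and none of these passed. No marker of the lists was at 0 on any array, and the part of the markers in the differences of the members was not tested.

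**Figure D5:**
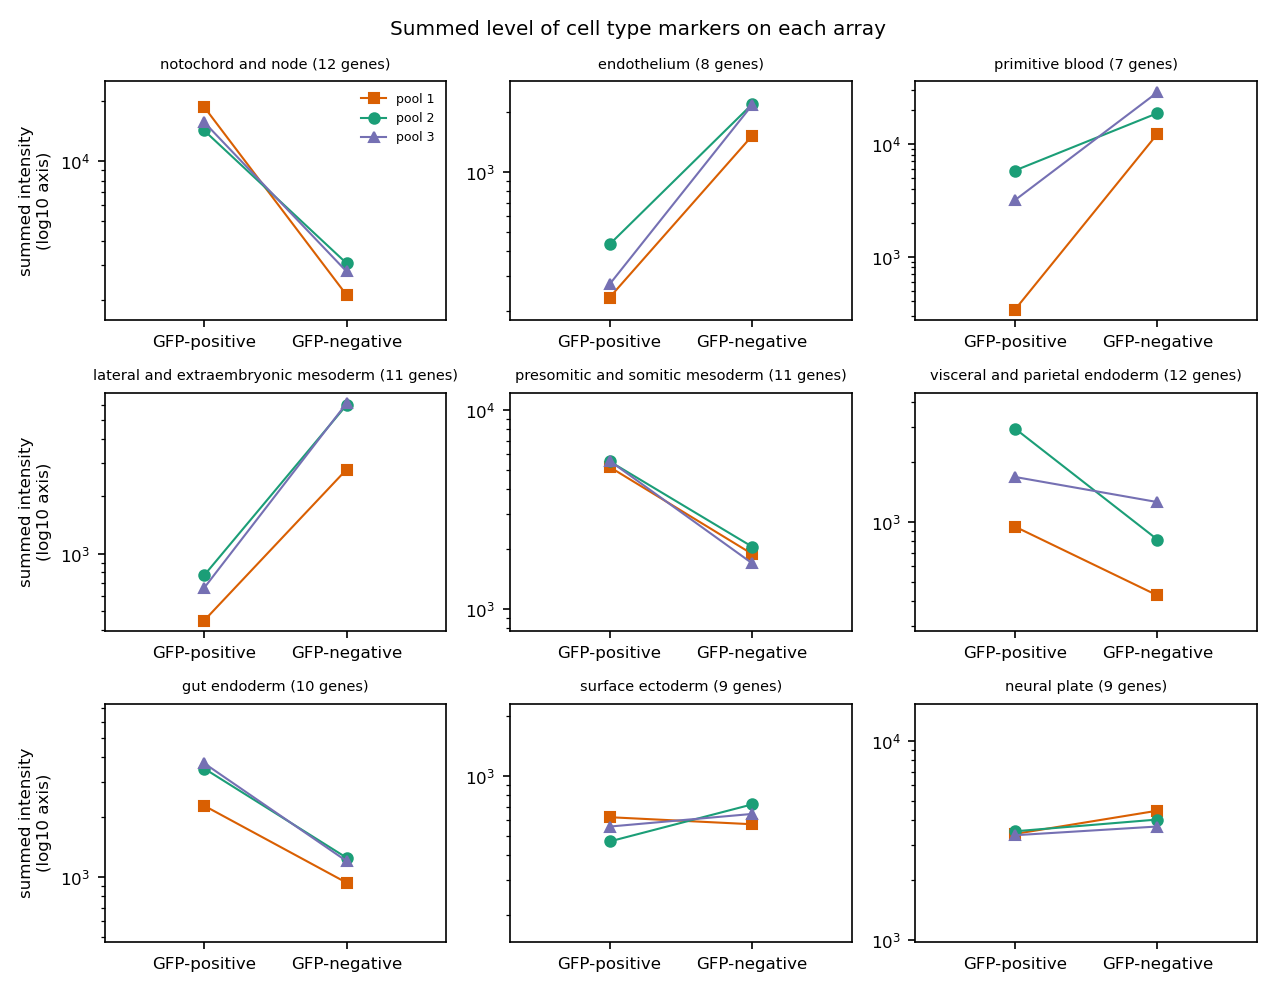
Summed intensity (log10 axis) of the measured markers of 9 cell types, on GFP-positive arrays at the left and GFP-negative arrays at the right, with a line for each pool. Endothelial, blood, lateral mesoderm and neural plate sums are higher on GFP-negative arrays in every pool. Notochord, presomitic, gut endoderm, and visceral and parietal endoderm sums are higher on GFP-positive arrays in every pool.

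Genes with array patterns most like those of the leading members were found by Pearson correlation of log2(intensity + 32) over the 6 arrays. For Lama1 they were Tspyl3 (r = 0.998), Apela (0.996), a secreted peptide ligand of the apelin receptor, and Alkbh6 (0.996). Apela averaged 559 in GFP-positive and 107 in GFP-negative cells, with a log2 fold change of 2.04 (limma adjusted p = 0.00762), whereas Tspyl3, at 0.43, and Alkbh6, at 0.76, did not pass (limma adjusted p = 0.246 and 0.0835). For Lama4 they were Slf2, Akap5 and Nrk (r = 0.997 for each). Nrk, a kinase gene, averaged 30.1 in GFP-positive and 120.0 in GFP-negative cells, with a log2 fold change of -1.28 (limma adjusted p = 0.0247). Akap5 passed at -1.07 (limma adjusted p = 0.0435), and Slf2, at -0.98, did not (limma adjusted p = 0.0641). The points share the 6 arrays and the difference between the groups, and these genes are the highest of 12627 compared.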

How the data were processed

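Total RNA of 3 GFP-positive and 3 GFP-negative sorts was amplified with a two-cycle labeling kit and hybridized with biotin, per the labels' protocols. The deposited values are intensities on a linear scale, made with GCOS 1.4, per the submitters' processing notes. In the table every array has a mean of 150.0 once the top and bottom 2% are dropped, so arrays share 1 scale. Detection calls were not used here, and 6 arrays limit the precision. The build behind the probe annotation is not given in the sources used here, and the coordinates printed are those of RefSeq promoters. Columns of samples left unused numbered 0.

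Of 45101 probe sets, 64 controls were left out. The platform annotation named 1 gene for 34945, several for 932 and none for 9160. Of the first, 34754 matched RefSeq (GRCm38.p6), and 0 symbols changed. Probe sets were kept where at least 3 of 6 arrays reached that array's 40th percentile (27821). They were fitted as log2(value + 32) in limma 3.58.1 under R 4.3.3, using lmFit and trended eBayes, with group as the only term. For a gene (12628 in all) the brightest kept probe set stands, and p was adjusted by Benjamini-Hochberg over genes at a threshold of 0.05. The fit was also run on simulated data as a check of the code, and that run is not used as support for any call.

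The members and lists were chosen with earlier results of these data known. Named were all members, each gene of a partner list that passed (otherwise the 2 with the largest change), and the 3 genes most correlated with the leading member in each direction. Genes that passed with the block are named as well, after their values were seen. Same-numbered arrays come from 1 pool, per the labels, and over kept probe sets their departures from the group mean had correlations of 0.542, 0.286 and 0.436. Alternatives were the offset, normalization, background correction, filter, variance model, pool as a block, gene summary, and arrays or pools left out.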

Additional observations from a re-analysis of the deposited data

How the results depend on the processing

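The log2 fold changes of Lama1, Lamb1 and Nid2 stayed above 0 and those of Lama4 and Nid1 below 0 under every alternative. That of Lamb2 stayed above 0 too, but it passed under 0 of the 19 alternatives that gave it a value. Lamb2 was not tested with a filter at the 60th percentile. Offsets of 16 and 64, quantile normalization, normexp, that filter and no variance trend left the members' calls at 2 higher and 2 lower, as did eBayes on 1 probe set a gene, chosen after seeing the data, under which 372 genes were higher and 216 lower. Without a filter or with p adjusted over probe sets, 1 member was higher (Lama1) and 0 lower, with Lama4 at -1.07, Nid1 at -1.10 and Nid2 at 1.02. Without a filter, which adds dim probe sets to the fit and to the adjustment, 226 of all genes were higher and 92 lower. With means over probe sets Nid1 had -0.69 and did not pass, so that 1 member was lower, Lamc1 had 0.18, Lama5 had -0.16 in place of -0.68, Lamb1 had 0.54 in place of 1.12, and 1 receptor was higher. The cause was not tested beyond the probe sets' own values.

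With the pool as a replicate block, which the shared pools allow, Lamb1 passed at 1.12, and 1061 of all genes were higher and 854 lower. That fit called 3 genes of the collagen IV list, 3 receptors and 1 dystroglycan glycosylation gene higher, and changed no other member's call. Leaving out 1 array or 1 pool gave 0 to 3 members higher and 0 to 3 lower, and 3 to 2296 of all genes higher and 0 to 2100 lower, the highest without pool 1 and the lowest without pool 2. Other laminin chains had 0 to 1 lower, the collagen IV list 0 to 3 higher and 0 to 1 lower, other basement membrane proteins 0 to 5 higher, receptors 0 to 4 higher and 0 to 2 lower, and dystroglycan glycosylation 0 to 3 higher. Log2 fold changes then lay between 0.99 and 1.30 for Lama1, -1.36 and -0.90 for Lama4, -1.43 and 0.55 for Lama5, 0.82 and 1.37 for Lamb1, -0.25 and 0.11 for Lamc1, -1.27 and -0.94 for Nid1, and 0.88 and 1.13 for Nid2. Lama5 was above 0 where its other probe set became the brightest, at 0.55 and 0.27 without GFP-negative arrays 2 and 3 and at 0.18 without pool 3. Marker sums without a pool can be read from the values of each array. Low intensities limit Lama2, Lama3 and Lamb2.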
